A study of Mus musculus with 2 samples.

Results

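In mouse thymic epithelial cells (TECs), 9 interferon response genes were followed gene by gene: Isg15, Ifit1, Ifit3, Ifi27l2a, Irf7, Oasl2, Bst2, Rsad2 and Xaf1. They were taken by symbol, and all 9 were found among the 32285 genes that the count tables list. Interferons are secreted proteins that bind receptors on the cell surface, and the receptors act through Janus kinases and transcription factors to switch on a set of antiviral genes. In the thymus, medullary TECs (mTECs) show part of this programme without infection, and mTECs that express the autoimmune regulator Aire also transcribe interferon genes among the many tissue-specific genes that they present to developing T cells.

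The study sorted EpCAM+ CD45- TER119- TECs from C57BL/6 female mice and compared them by droplet scRNA-seq. One group received 5.5 Gy of γ-rays when 7 weeks old and gave its thymus 15 days after that, and the control group was matched for age and not irradiated. The sources used here name no transgene for either group. Each condition was 1 library pooled from 3 mice, so differences between mice and between libraries cannot be told apart from irradiation. No test was therefore made between the conditions, and no p-value is given. The labels give an age of 9 weeks and, in their protocol, of 4 weeks. They name version 2 of the droplet chemistry where the study's methods name version 3.

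The labels of the deposit and its matrices disagree on which library is which. The matrix marked as control is filed under the sample labelled radiation, and the matrix marked as irradiated under the sample labelled control. The names used here follow the matrices, whose 3233 control and 5070 irradiated cells after filtering are the cell numbers of the study. Under the labels of the deposit, every direction between the libraries would reverse.

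The control library held 51586327 and the irradiated library 75542631 unique molecular identifiers (UMIs, each marking a single captured RNA molecule) in the kept cells. A kept cell had more than 2000 and fewer than 7500 detected genes and under 15% mitochondrial UMIs. The median depth was 13412 UMIs in control and 13003.5 in irradiated cells. The libraries shared 17 barcodes, 5 of them among kept cells. A level is the summed UMIs of a gene per 10000 summed UMIs of the same cells, with an exact Poisson 95% interval in brackets that covers counting error only. Levels depend on capture as well as on abundance, so they are compared between cells and not between genes.

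Of the 9 genes, 5 carry the core of the interferon-stimulated response element close to their start. This element binds interferon regulatory factors. The core was searched as GAAANNGAAA on both strands in RefSeq promoters of GRCm38.p6, from 250 bases before to 50 bases after a gene's start. It was found in 5 of the 8 promoters that matched these genes, against 3.44% of all 32851 promoters of that length. It was also in 24 of 51 promoters of a wider list of interferon response genes. The promoters of Oasl2, Irf7 and Xaf1 held no match, and no entry was matched for Ifi27l2a. The windows with matches are shown because the same short element recurs in them. Each is given 5′ to 3′ in the direction of the gene, with the matches in capitals and 20 bases on each side.
Isg15, chr4:156200855-156200916, minus strand: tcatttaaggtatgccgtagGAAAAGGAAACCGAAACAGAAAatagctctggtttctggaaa
Ifit1, chr19:34640765-34640833, plus strand: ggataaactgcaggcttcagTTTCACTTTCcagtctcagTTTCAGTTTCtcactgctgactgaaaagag
Ifit3, chr19:34583353-34583436, plus strand: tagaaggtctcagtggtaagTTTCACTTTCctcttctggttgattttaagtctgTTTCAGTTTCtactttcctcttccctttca
Bst2, chr8:71537567-71537622, minus strand: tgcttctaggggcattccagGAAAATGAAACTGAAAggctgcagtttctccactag
Rsad2, chr12:26456543-26456592, minus strand: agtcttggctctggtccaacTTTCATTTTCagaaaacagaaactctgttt
Isg15 held 3 overlapping matches that began 66 to 78 bases before the start. Bst2 held 2 overlapping matches, Ifit1 and Ifit3 2 separate matches each, and Rsad2 a single match 120 bases before its start. A match is a description of letters and not a bound site.

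Cell types were taken from 13 clusters of the integrated libraries. Interferon response genes were left out of the features for integration, which removed 9 of 2000. At least 100 cells in each library were found in 10 clusters, which enter the comparisons. Names came from lists of markers. Cluster 2 was Ccl21a+ mTEC-like, and cluster 4 was Aire+ mTEC-like with Aire at 13.2 per 10000 and Hdc among its leading genes. The list of Aire+ mTEC markers summed to 55.8 in cluster 4 and to 65.6 in cluster 0. The name of cluster 4 therefore does not cover all mTECs that express Aire. Cluster 6 was a dividing, transit-amplifying type (TA-mTEC-like), cluster 7 cTEC-like, cluster 8 Post-Aire mTEC-like and cluster 9 tuft-like. The other 4 kept their numbers. Cluster 0 expressed Aire at 8.10 per 10000 and was led by Pcp4, S100a9 and Fcer1g, cluster 1 by Matn1 and replication genes such as Mcm5, cluster 3 by Cxcl14 and the stress gene Atf3, and cluster 5 by Serpinf1 and Ackr4. Cluster 3 held Ccl21a at 114 per 10000, close to the 124 of cluster 2. Epcam, which marks epithelium, stood between 4.26 and 12.5 in all 10, and the macrophage and dendritic cell list was highest in cluster 0, at 11.9 in control and 12.1 in irradiated cells. Among the genes of that list, Fcer1g was 2.05 in cluster 0, while C1qa was 0.294, Csf1r 0.120 and Tyrobp 0.101.

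Of the 9 genes, 7 were highest in the Ccl21a+ mTEC-like cells in both libraries, where 1.96% of 18608 genes were. In the Aire+ mTEC-like cells 6 of the 9 were lowest in both libraries, where 7.6% of all genes were. All 9 were lower in the Aire+ than in the Ccl21a+ mTEC-like cells by more than 0.5 on the log2 scale in both libraries. Of all 13988 genes with at least 20 UMIs in each library, 29.2% were lower past that size. The log2 ratios ran from -1.39 for Rsad2 to -6.51 for Ifit3 in control and from -1.65 to -6.33 in irradiated cells. The pair of types was chosen after the levels were seen, so this is a description. The macrophage and dendritic cell list also differed between the types, at 0.175 in the Ccl21a+ and 7.60 in the Aire+ mTEC-like cells of the control library, and its part in the result was not tested. Of its 14 genes, 4 were found in at least 5% of the Aire+ mTEC-like cells. Of the wider list of interferon response genes, 44 of the 54 measured were lower in that comparison and 4, Epsti1, Cxcl9, Cxcl10 and Socs1, were higher.

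**Figure D1:**
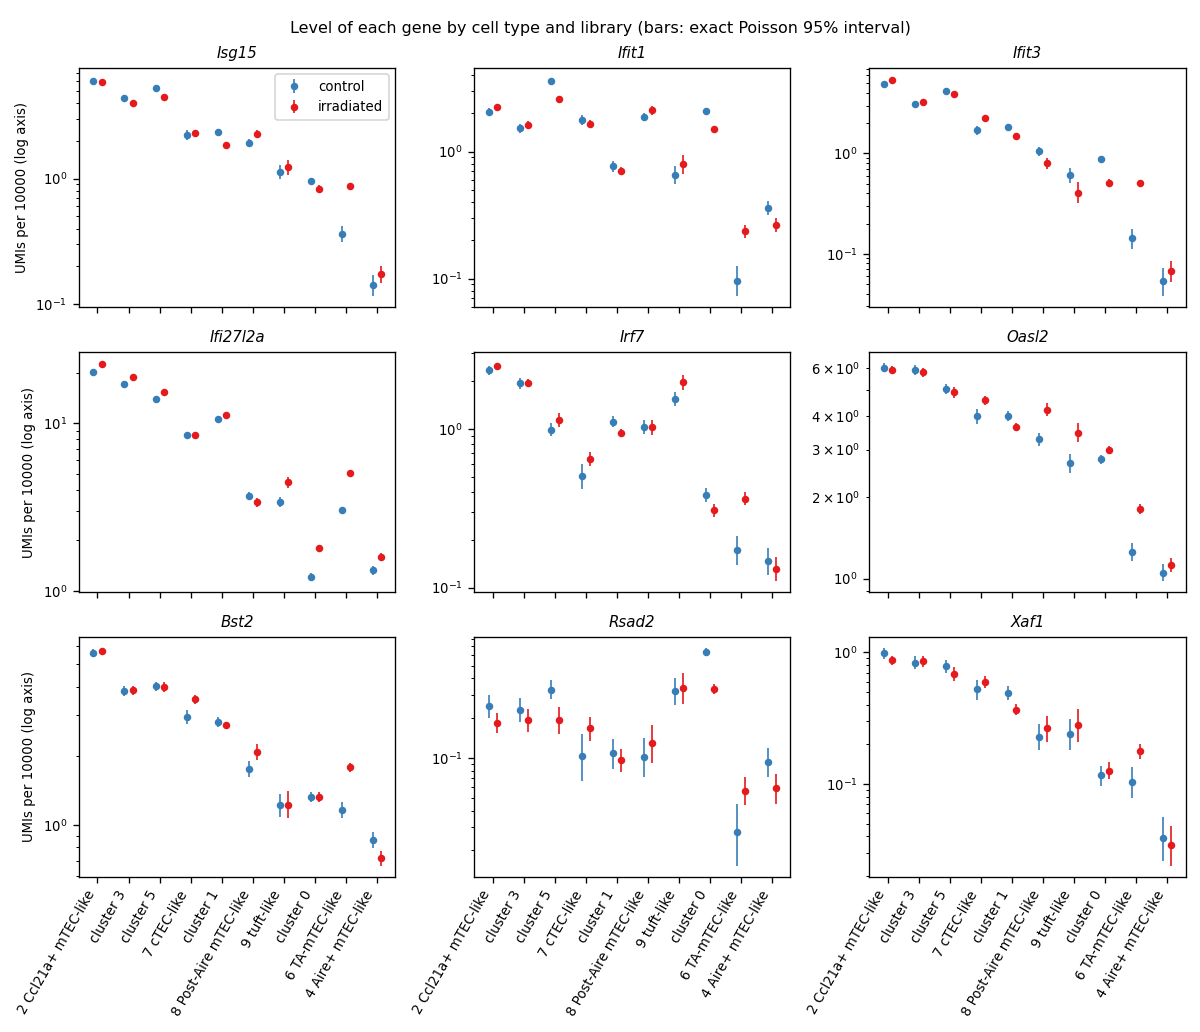
Level of each gene in UMIs per 10000 (log axis) in 10 cell types, with control in blue and irradiated in red, and bars for the exact Poisson 95% interval. For 7 genes the Ccl21a+ mTEC-like cells on the left are highest, Rsad2 and control Ifit1 stand high in cluster 0, and the irradiated TA-mTEC-like points lie above the control ones.

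Isg15 (ENSMUSG00000035692, chromosome 4, 156199424 to 156200818, minus strand of GRCm38) encodes a ubiquitin-like protein that is joined to other proteins during an interferon response. Its level in the Ccl21a+ mTEC-like cells was 6.07 (5.84 to 6.31) in the control and 5.88 (5.70 to 6.06) in the irradiated library. In the Aire+ mTEC-like cells it was 0.141 (0.115 to 0.171) and 0.172 (0.148 to 0.200), which makes the highest level 43.1 times the lowest in control and 34.1 times in irradiated cells. Clusters 5 and 3 followed the highest type in both libraries with intervals apart from it. The tuft-like level and that of cluster 0 overlapped in control cells, as did those of cluster 6 and cluster 0 in irradiated cells.

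Ifit3 (ENSMUSG00000074896, chromosome 19, 34583531 to 34588731, plus strand of GRCm38) encodes a protein with tetratricopeptide repeats that works beside Ifit1 against viral RNA. It had the widest spread among types of the 9, from 4.87 (4.67 to 5.09) to 0.0530 (0.0375 to 0.0727) in control cells, a 92.0-fold range. In irradiated cells it ran from 5.41 (5.24 to 5.59) to 0.0666 (0.0517 to 0.0845), an 81.2-fold range. The order of its 3 highest types, the Ccl21a+ mTEC-like cells and clusters 5 and 3, was that of Isg15. Ifit3 has a near-identical neighbour, Ifit3b. How reads that match both genes were counted was not examined, so the level of Ifit3 carries that uncertainty.

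Ifit1 (ENSMUSG00000034459, chromosome 19, 34640871 to 34650009, plus strand of GRCm38) binds viral RNA that lacks the host's cap methylation. Its order differed from that of Ifit3. It was highest in cluster 5, at 3.58 (3.41 to 3.77) in control cells and 2.58 (2.41 to 2.74) in irradiated ones, and the intervals of the libraries did not overlap. Cluster 0 was second in control cells, at 2.10 (2.02 to 2.19), and its interval overlapped that of the Ccl21a+ mTEC-like cells at 2.05 (1.92 to 2.19). Its lowest level was in the TA-mTEC-like cells of both libraries, and in irradiated cells that level overlapped the one in Aire+ mTEC-like cells.

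Ifi27l2a (ENSMUSG00000079017, chromosome 12, 103442167 to 103443680, minus strand of GRCm38) encodes a small hydrophobic protein induced by interferon. Its level was 20.3 (19.8 to 20.7) in control and 22.5 (22.1 to 22.8) in irradiated Ccl21a+ mTEC-like cells. It was lowest in cluster 0 of the control library, at 1.21 (1.15 to 1.27), and in Aire+ mTEC-like cells of the irradiated library, at 1.60 (1.52 to 1.68). The control levels of cluster 0 and the Aire+ mTEC-like cells overlapped. In irradiated cells no neighbours in its order of types did.

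Irf7 (ENSMUSG00000025498, chromosome 7, 141262706 to 141266481, minus strand of GRCm38) encodes the transcription factor that drives interferon alpha genes, and it is itself induced by interferon. It was 2.33 (2.19 to 2.48) in control and 2.47 (2.35 to 2.59) in irradiated Ccl21a+ mTEC-like cells. Tuft-like cells ranked high for this gene, at 1.55 (1.39 to 1.71) and 1.96 (1.76 to 2.18), next to cluster 3 in both libraries and overlapping with it in irradiated cells. The cTEC-like level was 0.506 (0.420 to 0.604) and 0.647 (0.581 to 0.718), below the Post-Aire mTEC-like cells.

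Oasl2 (ENSMUSG00000029561, chromosome 5, 114896936 to 114912234, plus strand of GRCm38) belongs to the oligoadenylate synthetase-like proteins that respond to double-stranded RNA. It had the narrowest spread among types of the 9, from 6.03 (5.80 to 6.27) to 1.05 (0.978 to 1.13) in control cells, a 5.74-fold range. In irradiated cells it ran from 5.93 (5.75 to 6.12) to 1.12 (1.06 to 1.19), a 5.28-fold range. The Ccl21a+ mTEC-like cells and cluster 3 could not be separated in either library.

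Bst2 (ENSMUSG00000046718, chromosome 8, 71534255 to 71537456, minus strand of GRCm38) encodes tetherin, which holds budding virus particles on the cell surface. It was 5.60 (5.38 to 5.83) and 5.71 (5.53 to 5.89) in Ccl21a+ mTEC-like cells of control and irradiated mice. It was 0.865 (0.799 to 0.936) and 0.717 (0.666 to 0.771) in Aire+ mTEC-like cells. Clusters 5 and 3, next in its order, overlapped in both libraries.

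Xaf1 (ENSMUSG00000040483, chromosome 11, 72301629 to 72313733, plus strand of GRCm38) encodes a partner of the apoptosis inhibitor Xiap that favours cell death. Its counts were low, with 28 control and 35 irradiated UMIs in the Aire+ mTEC-like cells. It was highest in Ccl21a+ mTEC-like cells, at 0.984 (0.891 to 1.08) and 0.872 (0.803 to 0.946), and overlapped there with cluster 3 in both libraries. The highest level was 25.2 times the lowest in control and 25.4 times in irradiated cells.

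Rsad2 (ENSMUSG00000020641, chromosome 12, 26442746 to 26456452, minus strand of GRCm38) encodes viperin, an enzyme that makes a chain-terminating nucleotide. Unlike the other 8, it was not highest in the Ccl21a+ mTEC-like cells or in cluster 3 or 5 in either library. Its order of types was most like that of Ifit1 among the 8 (Pearson r = 0.70). Clusters 0 and 5 were the highest types of both genes in control cells. Rsad2 was highest in cluster 0 of the control library, at 0.635 (0.589 to 0.683). In the irradiated library the tuft-like cells, at 0.339 (0.258 to 0.437), and cluster 0, at 0.334 (0.304 to 0.365), overlapped at the top. Its lowest level was in the TA-mTEC-like cells, from 15 control and 67 irradiated UMIs, and in irradiated cells it overlapped the Aire+ mTEC-like level.

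The 3 small clusters gave wide intervals. In cluster 11 of the control library, 119 Ifit1 UMIs came from 25 cells, and a single cell held 70 of them.

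Between the libraries, over all kept cells, 8 of the 9 genes differed by less than 0.5 on the log2 scale. Here and below a ratio is of the irradiated over the control level with 0.5 UMIs added to each sum, and its range combines the opposite ends of both Poisson intervals. Isg15 was 2.10 in control and 1.93 in irradiated cells, Oasl2 3.26 and 3.37, Bst2 2.30 and 2.47, Irf7 0.828 and 0.817, and Xaf1 0.360 and 0.349. Ifi27l2a was 6.82 in control and 7.88 in irradiated cells, Ifit3 1.59 and 1.54, and Ifit1 1.49 and 1.18. Rsad2 was lower in irradiated cells, at 0.159 (0.150 to 0.168) against 0.264 (0.251 to 0.279), a log2 ratio of -0.74. Few cells carried much of it. Without the cells that held 10 or more Rsad2 UMIs, 23 in control and 17 in irradiated cells, the levels were 0.135 and 0.101 from 688 and 758 UMIs. The ratio was then -0.42 (-0.63 to -0.21), and none of the 9 genes passed 0.5. Those cells were picked on Rsad2 itself. With only the highest cell of each library left out, the Rsad2 ratio was -0.70 (-0.87 to -0.54). These settings, and the others below that leave out cells, were chosen after seeing the data. Among all 20962 genes with at least 20 UMIs, 4.5% were higher and 16.3% lower past 0.5, and the median ratio was -0.07.

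The libraries held cell types in different shares, so the ratios were also averaged over the 10 types with equal weight. Of the 9 genes, 0 passed 0.5, with values from -0.11 for Rsad2 to 0.23 for Ifi27l2a and a median of 0.08. Of 9443 genes measured in every type, 0.265% were higher and 0.805% lower past 0.5. The wider list of interferon response genes had a median of 0.06 over 52 genes, with Cxcl10 alone past 0.5, in the lower direction. All these means include the TA-mTEC-like cells. Without that type, left out after seeing the data, the 9 genes ran from -0.24 for Rsad2 to 0.18 for Ifi27l2a. Their median was then -0.02, and the means of Isg15, Ifit1, Ifit3 and Xaf1 went from above to below 0.

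**Figure D2:**
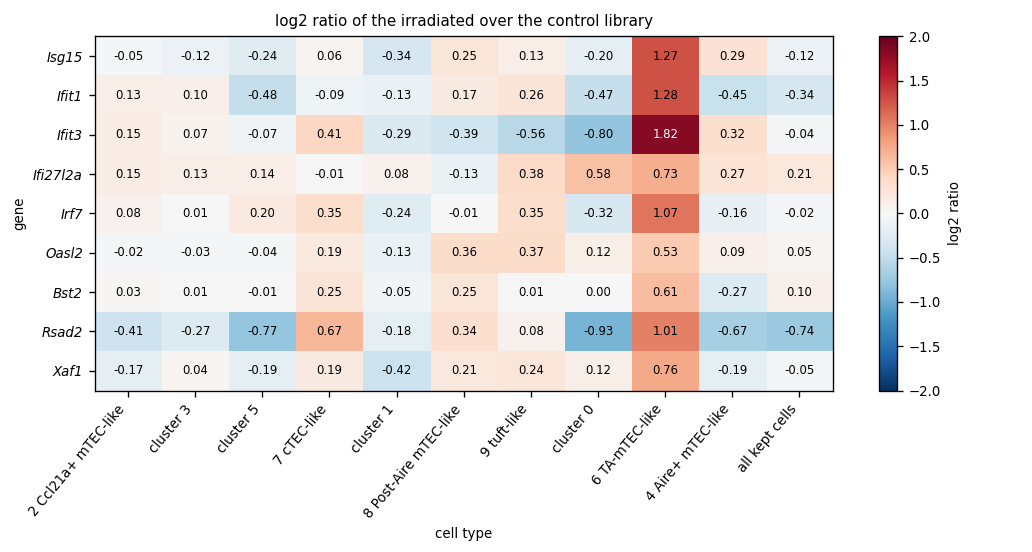
Log2 ratio of the irradiated over the control library for each gene (rows) and cell type (columns), with all kept cells in the last column and the colour scale running from -2 to 2. The TA-mTEC-like column holds values from 0.53 to 1.82, and values of the other 9 types lie on both sides of 0.

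The TA-mTEC-like cells departed from this. All 9 genes were higher there in the irradiated library by more than 0.5, with a median log2 ratio of 1.01. That median is the value of Rsad2, whose range included 0. With each cell thinned to 4000 UMIs, also chosen after seeing the data, 6 of the 9 passed 0.5 and the median was 0.66. Of 13296 genes measured in this type, 9.46% were higher and 6.16% lower past 0.5, and the median of all was 0.02. For 7 of the 9, the range of the ratio lay above 0 in this type and below 0 in at least 1 other, as it did for 2.57% of the 13296 genes.

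In the other 9 types, 2 of 81 pairs of gene and type were higher past 0.5 and 5 were lower. Over all genes the shares were 7.21% and 10.6% of 118539 pairs. Without the cells with 10 or more Rsad2 UMIs, 1 pair was higher and 3 were lower. With the highest cell of the gene in each library left out instead, 1 was higher and 6 were lower. Ifit3 in cluster 0 was 0.887 (0.833 to 0.943) in the control and 0.511 (0.474 to 0.550) in the irradiated library, a ratio of -0.80. A single control cell held 233 of its 1000 UMIs there, and without it the ratio was -0.42. With the highest irradiated cell, which held 76 of 703, left out as well, it was -0.58 (-0.80 to -0.36). Without the cells with 10 or more Rsad2 UMIs the levels were 0.401 and 0.366, and the ratio of -0.13 had a range that included 0. In tuft-like cells Ifit3 was 0.603 (0.507 to 0.712) and 0.408 (0.318 to 0.514), with a range of the ratio that also included 0. Ifi27l2a in cluster 0 went the other way, at 1.21 and 1.81. Rsad2 was lower in irradiated cells of clusters 0 and 5, at -0.93 and -0.77, and at -0.60 and -0.82 without the cells with 10 or more Rsad2 UMIs. In the Aire+ mTEC-like type its ratio was -0.67 and in cTEC-like cells 0.67, and both ranges included 0. There 3 control and 2 irradiated Aire+ mTEC-like cells held 52 of 67 and 44 of 60 UMIs, and without them the ratio was -0.43. In cTEC-like cells 1 irradiated cell held 43 of 91 UMIs, and without it alone the level was 0.0885 against 0.104 in control. A control cell held 10 of 25, and without both the ratio was 0.47 with a range that included 0. The TA-mTEC-like type was picked out after its values were seen, and it had 185 control and 483 irradiated cells.

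Ifit3 had the largest ratio in the TA-mTEC-like cells. It was 0.142 (0.112 to 0.177) from 78 UMIs in control and 0.505 (0.465 to 0.547) from 599 UMIs in irradiated cells, and the log2 ratio was 1.82. Isg15 was 0.362 (0.313 to 0.416) in control and 0.872 (0.820 to 0.927) in the irradiated library, which makes a ratio of 1.27. Ifit1 was 0.0964 (0.0722 to 0.126) and 0.235 (0.208 to 0.264), with a ratio of 1.28. The intervals of the libraries did not overlap for these 3 genes.

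Irf7 was 0.173 (0.140 to 0.211) in control and 0.363 (0.330 to 0.399) in irradiated TA-mTEC-like cells. Ifi27l2a was 3.03 (2.89 to 3.18) and 5.03 (4.90 to 5.16), and Oasl2 was 1.25 (1.16 to 1.35) and 1.81 (1.73 to 1.89). Bst2 was 1.17 (1.08 to 1.26) and 1.78 (1.71 to 1.86). Each of these 4 was higher in irradiated cells with intervals apart, at log2 ratios of 1.07, 0.73, 0.53 and 0.61. Xaf1 was 0.104 (0.0785 to 0.134) and 0.177 (0.154 to 0.203), also apart, with a ratio of 0.76. The Xaf1 ratio was -0.0349 after each cell was thinned to 4000 UMIs, so its direction did not hold there. The full Xaf1 levels of these cells rested on 57 control and 210 irradiated UMIs. Thinning leaves fewer, and no range is given for the thinned value. The median depth of these cells was 29968 UMIs in control and 23943 in irradiated cells. For Rsad2 the levels were 0.0273 (0.0153 to 0.0450) and 0.0565 (0.0438 to 0.0717). Their intervals overlapped, and the range of the Rsad2 ratio of 1.01 included 0.

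Of the 55 measured genes of the wider list, 28 were higher past 0.5 and none lower, with a median of 0.52. They included Ifit2, Oas2, Ddx58, Zbp1 and Gbp2, and the lists share some genes. Among interferon receptors only Ifnlr1, a chain of the interferon lambda receptor, passed 0.5 of the 6 measured. None of the 10 signalling genes did, with Irf9 at 0.40. Of 10 measured nucleic acid sensing genes 4 passed it, Ddx58, Dhx58, Tlr3 and Zbp1.

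Other values differed between the libraries in the same cells. Aire-positive cells, with at least 1 Aire UMI after each cell was thinned to 4000 UMIs, made up 133 of 185 control cells, or 71.9% (64.8% to 78.2%, Clopper-Pearson), and 286 of 483 irradiated cells, or 59.2% (54.7% to 63.6%). The thymocyte list of 13 genes stood at 0.175 in control and 0.177 in irradiated cells, with 11 and 12 of its genes found. The macrophage and dendritic cell list of 14 genes stood at 1.08, with 9 genes found, and 1.38, with all 14. Their part in the result was not tested beyond the values that follow.

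Within Aire-negative TA-mTEC-like cells, 52 in control and 197 in irradiated, all 9 genes were higher past 0.5, from 0.52 to 1.64, where 12.7% of 11006 genes were. The ranges of Rsad2 and Xaf1 included 0. Isg15 was 1.03 in control and 2.07 in irradiated cells, and Ifit3 was 0.386 and 1.21. Ccl21a and Krt5, which mark other mTECs, were also higher in these irradiated cells, at 20.9 against 15.1 and 13.6 against 9.41. Ccl25 was 0.841 there against 0.141 in control, a log2 ratio of 2.54 (1.75 to 3.40). With both libraries summed, Ccl25 was 44.6 in cTEC-like cells, 7.05 in cluster 0 and 3.85 in Aire+ mTEC-like cells. Prss16, which marks cTECs, was 0.766 in the irradiated and 0.580 in the control Aire-negative TA-mTEC-like cells, with a range of the ratio that included 0. Aire was 1.27 against 2.24 although no cell had an Aire UMI after thinning, and Epcam was 12.6 against 9.31. Within Aire-positive cells all 9 ratios were above 0 and 4 of the 9 passed 0.5, Isg15, Ifit1, Ifit3 and Irf7, where 7.98% of 12511 genes did. The values there ran from 0.20 to 1.01, with Rsad2 on 4 and 11 UMIs. The ranges of Isg15, Ifit3, Ifi27l2a and Oasl2 lay above 0, while those of Ifit1, Irf7, Bst2, Rsad2 and Xaf1 included 0. In the same cells Ccl21a was lower in the irradiated library, at 1.67 against 2.39, and Ccl25 was higher, at 0.421 against 0.190. Prss16 was 0.569 against 0.429, a log2 ratio of 0.41 (0.056 to 0.76). Krt5 was 3.76 against 3.42 and Aire 7.72 against 6.89. The part of these differences in the result was not tested.

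**Figure D3:**
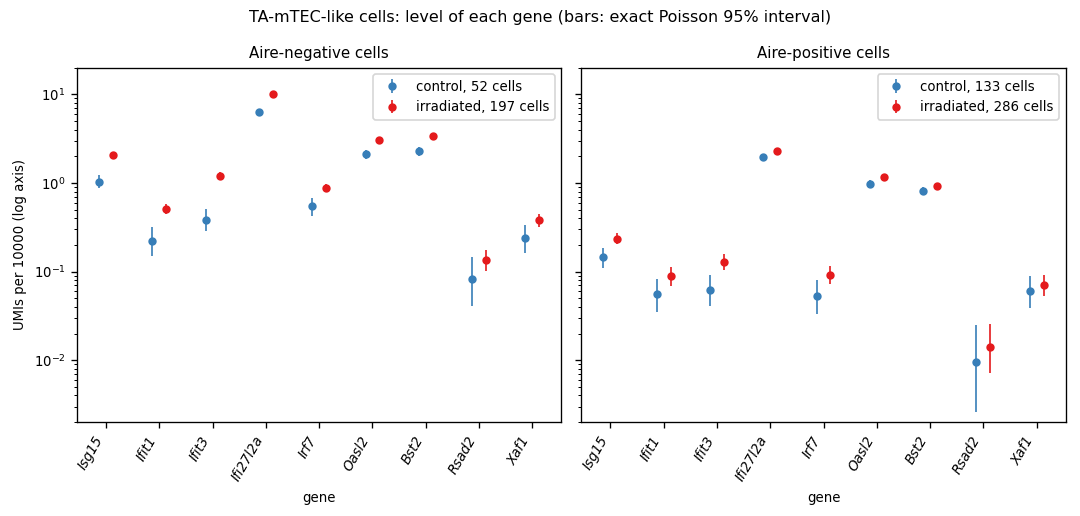
Level of each gene in UMIs per 10000 (log axis) in TA-mTEC-like cells, for Aire-negative cells on the left and Aire-positive cells on the right, with control in blue, irradiated in red and bars for the exact Poisson 95% interval. All 9 genes lie higher in irradiated cells in both panels, and the gap is wider on the left for each gene but Irf7.

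Dividing cells of cluster 1 did not show the same values. Dividing was called at 3 or more UMIs over 15 genes of the cell cycle after thinning. In the 70 control and 188 irradiated dividing cells of cluster 1, Isg15 had a log2 ratio of -0.15 (-0.53 to 0.24), Ifit3 of -0.16 (-0.66 to 0.35) and Ifi27l2a of 0.47 (0.32 to 0.63). The 9 ratios ran from -0.68 for Rsad2 to that of Ifi27l2a, with a median of 0.13, and only the range of Ifi27l2a excluded 0. In dividing cells of all clusters other than 6 the 9 ratios ran from -1.16 to 0.40, with a median of -0.0138. Ifit3 was -0.76 (-1.04 to -0.47) there, Rsad2 -1.16 (-1.82 to -0.50) and Ifi27l2a 0.40 (0.28 to 0.51), and the ranges of the other 6 included 0. With 2 cells of 10 or more Rsad2 UMIs left out, 1 in each library, Ifit3 was -0.52 (-0.82 to -0.21) and Rsad2 -0.60 with a range that included 0. The difference between the clusters was not tested.

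Aire-positive cells had lower levels than Aire-negative cells of the same cluster. The comparison used the 4 types with at least 30 cells of each kind in each library, which were clusters 0 and 1, the TA-mTEC-like and the Post-Aire mTEC-like cells. Enough UMIs in all of them were found for 8 of the 9 genes, and all 8 were lower past 0.5 in both libraries in the mean over types. Of 8904 genes, 7.06% were lower and 3.31% higher in both. The means ran from -0.78 for Oasl2 to -1.90 for Ifit3 in control cells, and from -0.83 to -1.80 for the same genes in irradiated cells. Rsad2 did not reach the minimum of 20 UMIs in at least 1 type.

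The means came mostly from cluster 1 and the TA-mTEC-like cells. In cluster 1, Isg15 was 0.438 in Aire-positive and 3.05 in Aire-negative control cells, and 0.299 and 2.50 in irradiated cells. In TA-mTEC-like cells Irf7 was 0.0530 in Aire-positive and 0.543 in Aire-negative control cells, and 0.0917 and 0.872 in irradiated cells. Over these 2 types alone the median of the 8 genes was -2.38 in control and -2.54 in irradiated cells. The wider list had 32 of 49 genes lower in control and 31 of 49 in irradiated cells past 0.5, and none higher. Aire-positive and Aire-negative TA-mTEC-like cells also differed in other markers. Ccl21a was 2.39 and 15.1 in control cells and 1.67 and 20.9 in irradiated cells. Krt5 was 3.42 and 9.41 in control cells and 3.76 and 13.6 in irradiated cells. The part of these differences in the Aire ratios was not tested.

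In cluster 0 and the Post-Aire mTEC-like cells the ratios were mostly smaller in size, and some genes departed from this pattern. Shares of all genes were not computed within these types alone. In irradiated cluster 0 every gene was lower in Aire-positive cells, with ranges below 0. Isg15, Ifit1, Ifi27l2a, Oasl2 and Bst2 were so in control cluster 0 too, while the ranges of Irf7 and Xaf1 included 0. Some of these ranges depended on single cells. With the highest cell of each kind left out, Bst2 in irradiated cluster 0 was -0.13 (-0.36 to 0.10). In control cluster 0 Isg15 was then -0.15 (-0.43 to 0.13) and Oasl2 -0.15 (-0.31 to 0.00953). Bst2 in control cluster 0 was -0.22 (-0.45 to 0.00662) without its highest cell, and -0.25 (-0.47 to -0.0184) without that of each kind. Every ratio was below 0 in control Post-Aire mTEC-like cells, though some ranges included 0. In the irradiated ones only the ranges of Ifi27l2a and Bst2 lay below 0. That of Ifi27l2a included 0 without its highest cell, at -0.15 (-0.49 to 0.18), and lay below 0 without that of each kind. Ifit3 was higher in Aire-positive cells of cluster 0 in the control library, at a log2 ratio of 0.49 (0.19 to 0.80), and lower in the irradiated library, at -0.67 (-1.01 to -0.33). The control value depended on 1 cell with 233 UMIs, and without it the ratio was -0.00364 (-0.32 to 0.32). With the highest cell of each kind left out, the control ratio was 0.49 (0.14 to 0.86) and the irradiated ratio -0.26 (-0.66 to 0.14). For Rsad2 the control ratio was 1.15 (0.75 to 1.56) and the irradiated ratio -1.24 (-1.63 to -0.85). Both values rested on the cells with 10 or more Rsad2 UMIs, which were 13 Aire-positive and 2 Aire-negative cells in control and 9 and 3 in irradiated cells. Without them Rsad2 was 0.26 (-0.47 to 1.01) and -0.00359 (-0.87 to 0.91), and Ifit3 was -0.19 (-0.60 to 0.23) and -0.49 (-0.90 to -0.0743). In the Post-Aire mTEC-like cells Ifit3 was lower in control Aire-positive cells, at -2.22 (-3.14 to -1.38), while in irradiated cells its ratio was 0.25 with a range that included 0.

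**Figure D4:**
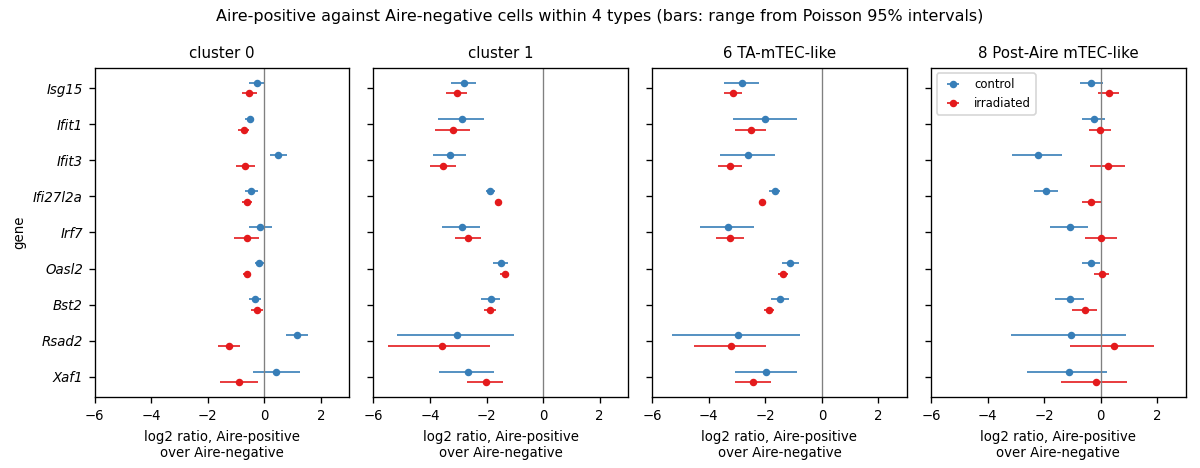
Log2 ratio of the level in Aire-positive over Aire-negative cells for each gene in 4 types, with control in blue, irradiated in red and bars for the range from the Poisson 95% intervals. Every point lies below 0 in cluster 1 and in the TA-mTEC-like cells, and points lie on both sides of 0 in cluster 0 and in the Post-Aire mTEC-like cells.

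Dividing against non-dividing cells could be compared in cluster 1 and the Aire+ mTEC-like cells. Of the 9 genes 2, Ifit1 and Ifit3, were lower past 0.5 in both libraries in the mean of both types, where 5.05% of 10595 genes were lower and 4.83% higher. Ifit1 had means of -1.06 and -0.95 and Ifit3 of -1.07 and -1.16. The types did not show the same values. Shares of all genes were not computed within either type alone. In cluster 1 all 9 genes had lower levels in dividing cells of both libraries, although the range for Rsad2 in control cells included 0, with Isg15 at 1.02 against 2.89 in control and 0.923 against 2.32 in irradiated cells, and Oasl2 at 2.21 against 4.70 and 2.21 against 4.36.

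In the Aire+ mTEC-like cells the ratios lay on both sides of 0. Isg15 was higher in dividing cells of the irradiated library, at 0.361 against 0.141, from 53 UMIs in dividing cells. In the control library it was 0.0960 against 0.147, from 9 UMIs in dividing cells and with a range that included 0. Outside the TA-mTEC-like cells, 1 dividing irradiated cell had 10 or more Rsad2 UMIs. It held 24 Rsad2, 34 Isg15 and 20 Irf7 UMIs. The dividing irradiated Aire+ mTEC-like cells held 27 Rsad2 UMIs. All irradiated Aire+ mTEC-like cells with fewer than 10 Rsad2 UMIs held 16, so that cell was among the dividing cells of this type. It thus held 34 of their 53 Isg15, 20 of their 26 Irf7 and 24 of their 27 Rsad2 UMIs. The ratios without it were not computed. The irradiated means of Isg15, Irf7 and Rsad2 over both types, at 0.0188, -0.33 and 0.44, include these UMIs, so the count of 2 may depend on them. At a coarser clustering (resolution 0.3) the mean of Ifit3 was above 0 in both libraries, at 0.54 and 0.0318. That of Ifit1 was above 0 in irradiated cells, at 0.46, so the count of 2 also holds only for the clusters used here.

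Rsad2 was held by few cells. The 1% of cells with the most Rsad2 UMIs held 54.6% of them in control and 49.2% in irradiated cells. For the epithelial marker Epcam the shares were 5.84% and 5.27%. Among the other 8 genes the share was highest for Ifit3, at 19.9% and 16.8%, and Ifit1, at 16.3% and 13.5%, and it lay between 5.58% and 10.8% for the rest in both libraries. The gene with the lowest total UMIs was Rsad2, and Xaf1 with 1859 control UMIs had a share of 8.71%.

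**Figure D5:**
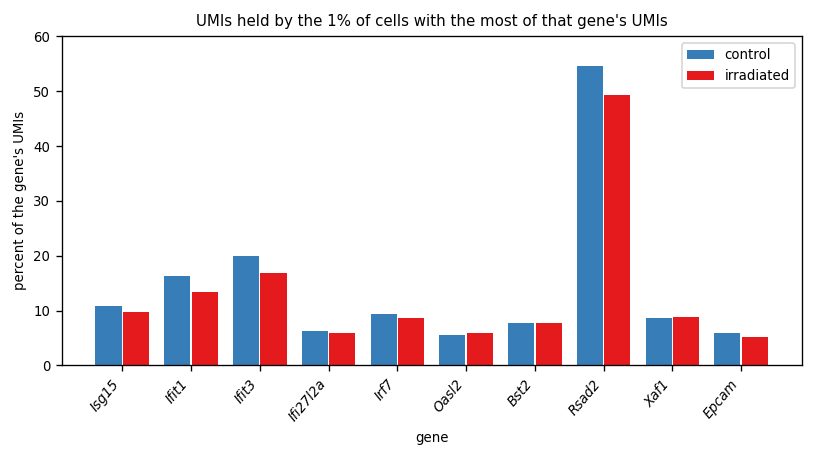
Percent of a gene's UMIs held by the 1% of cells with the most UMIs of that gene, with control in blue and irradiated in red, for the 9 genes and Epcam. Rsad2 stands at 54.6% and 49.2%, and no other gene shown passes 19.9%.

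Cells with at least 10 Rsad2 UMIs numbered 23 in control and 17 in irradiated cells, and 15 and 12 of them lay in cluster 0. They were chosen on Rsad2 after its values were seen, so what follows is a description. In cluster 0 of the control library they held 559 of 716 Rsad2 UMIs, and the level without them was 0.143. In irradiated cells they held 331 of 459, and the level without them was 0.0944. In both libraries the rest of cluster 0 lay below the tuft-like cells.

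The same cells of cluster 0 were high in Ifit1, at 16.8 against 1.68 in the rest of the control cells and 9.70 against 1.40 in irradiated cells. Ifit3 was 18.0 against 0.401 and 10.4 against 0.366. Isg15 was 7.60 against 0.770 and 7.12 against 0.742. Oasl2, Irf7, Bst2 and Xaf1 also had higher levels in them in both libraries, at log2 ratios from 0.36 for Bst2 in irradiated cells to 2.61 for Xaf1 in control cells. The irradiated Bst2 level of 1.67 (1.15 to 2.34), from 33 UMIs, had an interval that covered the 1.32 of the rest. Ifi27l2a differed from these, at 0.516 (0.295 to 0.837) against 1.23 in control cells and 1.26 (0.817 to 1.86) against 1.82 in irradiated cells. Ifit3 varied among these cells, with a median of 3 UMIs in control and 0 in irradiated cells. Interferon beta, Ifnb1, was found in 4 of the 15 control cells and 3 of the 12 irradiated cells, which held 18 of all 31 and 13 of all 35 Ifnb1 UMIs.

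Interferon genes themselves were rare. Of 12 listed ligands, 5 had at least 20 UMIs over both libraries, and all 5 had their highest level in cluster 0. The interferon lambda genes Ifnl2 and Ifnl3 had 145 and 140 UMIs in control and 292 and 181 in irradiated cells. Ifng had 33 and 168 UMIs, at a log2 ratio of 1.78, and Ifna13 had 3 and 20. Both passed 0.5, and Ifng is made mainly by lymphocytes. Ifna1, Ifna4 and Ifna5 had 0 UMIs in each library. The count of UMIs for these genes is too low to be followed by type between the libraries.

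Receptors and signalling genes did not differ by 0.5 between the libraries over all kept cells, 0 of 6 and 0 of 10. By type, with both libraries summed, they split. Ifnar2 was highest in cluster 5 at 1.52 and Ifngr1 in the Ccl21a+ mTEC-like cells at 1.60, while Ifngr2 was highest in the Aire+ mTEC-like cells at 2.96 and lowest in cluster 5. Stat2 and Irf9, which act on interferon response genes, were lowest in the Aire+ mTEC-like cells, at 0.184 and 0.272. Socs1, an inhibitor of the pathway, was highest in cluster 0 at 1.66 and lowest in the Ccl21a+ mTEC-like cells at 0.562.

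Across the 10 types and both libraries, 20 points that share library, depth and cells, the pattern of Isg15 was most like those of Ifit3 (Pearson r = 0.98), Parp14 (0.98) and Rtp4 (0.98) among 12595 genes with at least 500 UMIs. Ifit3 was most like Ifit3b, Isg15 and Ifi44, Xaf1 most like Rtp4, Ddx58 and Ptprd, and Oasl2 most like Herc6, Irgm2 and Isg15. Irf7 was most like Oas1g (0.98), then Tle4 and Cdh1. Ifi27l2a was most like Tagln, Dag1 and Vwa1, and Bst2 most like Cdh3, Mir205hg and Osmr, none of them on the interferon lists. Ifit1 was most like Cst3 (0.96), Rora and Tmem140. Rsad2 had the weakest likeness, to Ctsf (0.86), Itsn1 and Malat1. These correlations are descriptions and carry no p-value.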

How the data were processed

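Per the methods of the study, the authors mapped the droplet reads to mm10 with Cell Ranger (5.0.1 in the file headers, 5.1 in the submitters' processing notes), and they deposited raw UMI counts per gene and barcode without normalization. Genes found in at least 5 barcodes of a library were used for the limits on cells. Clusters were made with Seurat 5.3.0 in R 4.3.3 after the settings of the study, with 3000 variable genes, 1991 integration features, 20 principal components and a resolution of 0.5. No doublet caller was run. Levels, ratios and intervals were computed from summed counts with numpy 2.4.6 and scipy 1.17.1, and a gene entered a comparison with at least 20 UMIs in the summed arms of each type used. The main comparisons give all 9 genes, by name or by count and range, while comparisons within a single type name some of them. Likeness is the Pearson correlation of log2(level + 0.01). The ratios were tested on simulated counts. Alternatives covered limits on cells, clustering, denominators, thinning and the removal of cells with RNA of other types. The genes, lists and comparisons were chosen with earlier results of these data known. Positions are from GENCODE and promoters from RefSeq, both on GRCm38, the assembly of mm10. The depth was 51586327 and 75542631 UMIs, and with 1 library per condition its precision covers counting error only.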

Additional observations from a re-analysis of the deposited data

Results flagged for a closer look

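Of the 9 genes, 7 went opposite ways between the libraries in different types, with the range of the ratio above 0 in TA-mTEC-like cells and below 0 in at least 1 other type. Of 13296 genes measured in TA-mTEC-like cells, 2.57% did so. The difference between types was not tested, and each library is a single pool. Isg15 was 1.27 in TA-mTEC-like cells and -0.34 in cluster 1, Oasl2 0.53 and -0.13, and Xaf1 0.76 and -0.42. Ifit3 was 1.82 in TA-mTEC-like cells and -0.80 in cluster 0, and Irf7 1.07 and -0.32. The value of Ifit3 in cluster 0 came from few cells. Without those with 10 or more Rsad2 UMIs, a setting chosen after seeing the data, it was -0.13 (-0.40 to 0.13). With only the highest cell of each library left out it was -0.58 (-0.80 to -0.36). In cluster 1 Ifit3 was -0.29 (-0.45 to -0.13). Irf7 in cluster 0 was -0.19 (-0.48 to 0.10) without the cells with 10 or more Rsad2 UMIs, and in cluster 1 of the full data -0.24 (-0.44 to -0.0326). Ifit1 was 1.28 against -0.48 in cluster 5, and Bst2 0.61 against -0.27 in Aire+ mTEC-like cells. Without the control cell with the most Bst2 UMIs, the latter was -0.21 (-0.43 to 0.0135). With the highest cell of each library left out it was -0.24 (-0.46 to -0.0159). All values are log2 ratios of the irradiated over the control level.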

How the results depend on the processing

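No paired analysis was possible because each condition had 1 library. Of the summary values under alternatives, 111 stayed within the range set by the Poisson intervals or, for counts and the wider list, within 1.5 times or 1 SD, 10 moved out of it and 1 turned in direction. Of the values of single genes, 1131 stayed, 171 moved and 13 turned. A turn was counted only where the main ratio was at least 0.5 in size. Smaller ratios that crossed 0 are therefore among those that stayed or moved. In TA-mTEC-like cells, where all alternatives were chosen after seeing the data, the median of the 9 genes stayed between 0.66 and 1.06 under 14 alternatives. The lowest came from thinning each cell to 4000 UMIs, with 6 of the 9 past 0.5 and Xaf1 at -0.0349. Within Aire-positive cells alone the median was 0.46 over 8 genes. The Aire ratio of control cells had a median of -0.91 over 7 genes at a mitochondrial limit of 10%. With clusters 1 and 6 alone, also chosen after seeing the data, it was -2.38 in control and -2.54 in irradiated cells.

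The dividing ratio depended on the clusters. At a resolution of 0.3 its median was 0.0894 in control and 0.46 in irradiated cells. There Isg15 was 0.28, Ifit3 0.54, Irf7 0.0894 and Xaf1 0.0756 in control, and Ifit1 0.46 and Ifit3 0.0318 in irradiated cells. At a resolution of 1.0 Ifit1 was 0.19 and Ifit3 0.44 in irradiated cells, and with interferon genes kept among the features Ifit3 was 0.00818 in control cells. With a single type left, the irradiated median was -1.19 in cluster 1, chosen after seeing the data, -1.16 without cells with 2 or more thymocyte UMIs, -1.01 without those with 2 or more macrophage and dendritic cell UMIs and -1.48 at 6 dividing UMIs, where the control median was -2.17. The cause was not tested. Without the single cell with the most Rsad2 UMIs, chosen after seeing the data, the library ratio of Rsad2 turned in some types. It was 0.10 in Aire+ mTEC-like cells, -0.24 in cTEC-like cells and 0.12 in dividing cells of cluster 1. With the highest cell of each library left out, these ratios were -0.62, 0.47 and -0.40, the directions of the full data, and each range included 0. Depth limits Rsad2 and Xaf1 most.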
